A study of Mus musculus with 38 samples.

Results

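The guanylate-binding protein (GBP) family was followed through all 10 groups of 3 kidney experiments with fibroblast growth factor 23 (FGF23), the bone hormone that lowers phosphate. Its members here were Gbp2, Gbp3, Gbp4, Gbp5, Gbp6, Gbp7, Gbp8 and Gbp9, chosen by gene symbol, which are 8 of the 55487 genes counted. The genes of the family were picked because they had been seen to be higher with FGF23 in anti-glomerular basement membrane (anti-GBM) disease, so their values in that comparison are a description, and counts of calls there are no test of the family. The rule had no threshold, and all 8 members passed the filter on low counts in each of the 3 experiments.

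Kidneys came from 10-week-old male C57BL/6JRj mice in the anti-GBM experiment. Mice with disease had been immunized with sheep IgG in complete adjuvant and then injected with nephrotoxic serum, and healthy mice had received phosphate-buffered saline. They were given recombinant human FGF23 or vehicle by daily injection for 6 days, in 4 healthy vehicle, 3 healthy FGF23, 4 anti-GBM vehicle and 3 anti-GBM FGF23 mice. The Adriamycin experiment used 10-week-old female BALB/c mice, made proteinuric with a single dose of Adriamycin (doxorubicin) or left healthy with saline, and given FGF23 or vehicle once, 24 h before dissection, with 4 mice in each of the 4 groups. The slice experiment used precision-cut kidney slices (PCKS) from male DBA/2J mice with adenine nephropathy, aged 23 weeks, kept in culture with FGF23 or vehicle, with 4 slice cultures in each arm and no slices from healthy kidneys. The labels give 1 h for this treatment and the study's text a longer time. No genetic modification is given for any group. Adjuvant and foreign serum were part of the anti-GBM disease groups, and the injected hormone was a human protein in all FGF23 groups.

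Total counts per library ran from 13704248 to 23630210 in the anti-GBM experiment, from 15665050 to 27583911 in the Adriamycin experiment and from 11186925 to 16254987 in PCKS. Levels are given as CPM, the counts of a gene per 1000000 counts of its library after TMM scaling within each experiment, so that levels of different experiments were not scaled together. Markers of kidney tubules summed to between 10350 and 16030 CPM in every kidney and to between 2163 and 7617 CPM in the slices, and podocyte markers to at least 368 CPM in every library. No listed tubule or podocyte marker was at 0 in all libraries of a group. The mice and slices of a group are separate replicates by their labels, and p-values measure the spread between them.

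GBPs are large GTPases that interferons switch on in most cell types, interferon gamma above all. They gather on the membranes of vacuoles and bacteria inside the cell, together with the immunity-related GTPases (IRGs), break these membranes open and feed the inflammasomes, which drive pyroptosis and interleukin-1 release. Their genes are standard readouts of interferon signaling, in which the transcription factor IRF1 takes part.

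The mouse genes lie in 2 clusters, given here in GRCm38 coordinates from the GENCODE annotation. On chromosome 3, on the plus strand, Gbp5 (142493978-142522344), Gbp7 (142530342-142550149), Gbp3 (142560026-142573209) and Gbp2 (142620602-142638008) follow each other. On chromosome 5, on the minus strand, lie Gbp8 (105014150-105139540), Gbp9 (105077630-105139539), Gbp4 (105115767-105139586) and Gbp6 (105270702-105293698). Gbp8, Gbp9 and Gbp4 share 60 to 61 exon bases at their 5′ ends. Another 4 genes of the name stand among them: Gbp2b and Gbp2-ps on chromosome 3, and Gbp10 and Gbp11 on chromosome 5.

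The copies are alike enough to bear on the counts. Of the 58-base words in the Gbp6 transcripts, 69.6% also occur in a transcript of another gene, 63.9% in Gm43302, which overlaps it on the same strand, and 44.0% in Gbp10. For Gbp10 the share is 81.9%, for Gbp8 13.7%, for Gbp7 12.2%, and for Gbp9, Gbp4, Gbp3, Gbp2 and Gbp5 it runs from 6.02% down to 1.16%. How reads that match several genes were counted is not given in the sources used here, so the values of Gbp6 and Gbp10 are uncertain, while those of the other 7 members rest mostly on their own sequence.

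Promoters are shown because interferon-responsive factors are known to bind 2 short elements: the interferon-stimulated response element (ISRE), which IRFs read, and the gamma-activated site (GAS). RefSeq's table (GRCm38.p6) matched 4 of the 8 members, those on chromosome 3. It named none of Gbp4, Gbp6, Gbp8 and Gbp9. The 250 bases before each start were searched on both strands for the ISRE core, written as GAAA, any 2 bases and GAAA, and for TTCNNNGAA, the GAS. Capitals mark matches, and each run stops where more than 30 bases of an annotated exon would be shown. The windows are chr3:142496684-142496929 for Gbp5, chr3:142530086-142530335 for Gbp7, chr3:142559794-142560043 for Gbp3 and chr3:142620413-142620631 for Gbp2, all on the plus strand and written 5′ to 3′.
Gbp5: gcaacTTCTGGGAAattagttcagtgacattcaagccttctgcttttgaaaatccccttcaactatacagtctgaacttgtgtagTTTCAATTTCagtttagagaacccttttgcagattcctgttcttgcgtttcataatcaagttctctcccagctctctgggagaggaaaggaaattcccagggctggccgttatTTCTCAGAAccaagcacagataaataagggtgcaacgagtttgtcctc
Gbp7: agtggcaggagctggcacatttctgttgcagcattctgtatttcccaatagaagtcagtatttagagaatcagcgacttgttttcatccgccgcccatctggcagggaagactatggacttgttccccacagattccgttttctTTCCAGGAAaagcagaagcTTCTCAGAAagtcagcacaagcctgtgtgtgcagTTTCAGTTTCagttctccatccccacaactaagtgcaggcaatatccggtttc
Gbp3: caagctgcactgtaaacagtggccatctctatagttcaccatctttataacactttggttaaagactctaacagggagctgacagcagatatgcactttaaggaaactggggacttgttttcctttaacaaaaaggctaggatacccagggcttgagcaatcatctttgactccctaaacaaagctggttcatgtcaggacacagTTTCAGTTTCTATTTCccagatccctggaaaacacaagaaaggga
Gbp2: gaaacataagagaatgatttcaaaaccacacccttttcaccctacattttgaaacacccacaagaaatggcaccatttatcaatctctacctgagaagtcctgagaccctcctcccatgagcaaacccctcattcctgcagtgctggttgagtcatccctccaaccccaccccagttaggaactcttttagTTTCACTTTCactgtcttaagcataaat

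All 4 promoters held the ISRE core, which stood in 2.98% of 32851 RefSeq promoter windows of the same length. Gbp3 held 2 overlapping copies before its first start and no match before its second start. Gbp5 and Gbp7 also held 2 GAS matches each, where 7.02% of all windows had at least 1, and 0.332% of all windows had both elements. None of the ISRE and GAS matches in these windows overlapped each other. These letters are matches and not measured binding.

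Levels of the members within a library were compared per kilobase of exon not shared with another gene. In healthy C57BL/6 vehicle kidneys, Gbp2 was highest with 6.96 CPM per kb, followed by Gbp3 with 3.73, Gbp7 with 3.25, Gbp9 with 2.73 and Gbp4 with 1.51 CPM per kb. Gbp6 (1.18 CPM per kb) and Gbp5 (0.855 CPM per kb) came next, and Gbp8 was lowest of the members with 0.196 CPM per kb. The order differed in BALB/c kidneys, where healthy vehicle mice had 15.5 CPM per kb of Gbp3, 5.08 of Gbp2 and only 0.146 of Gbp6. In vehicle slices Gbp2 reached 35.6 CPM per kb and Gbp3 16.4. By this measure Gbp2 and Gbp3 were the most abundant of the 8 members, and Gbp8 the least abundant, in each of the 10 groups. Per kilobase of all exon bases, Gbp5 (0.855) lay above Gbp6 (0.840) in healthy C57BL/6 vehicle kidneys. In FGF23 slices Gbp6 (0.807) then lay below Gbp8 (0.830).

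**Figure D1:**
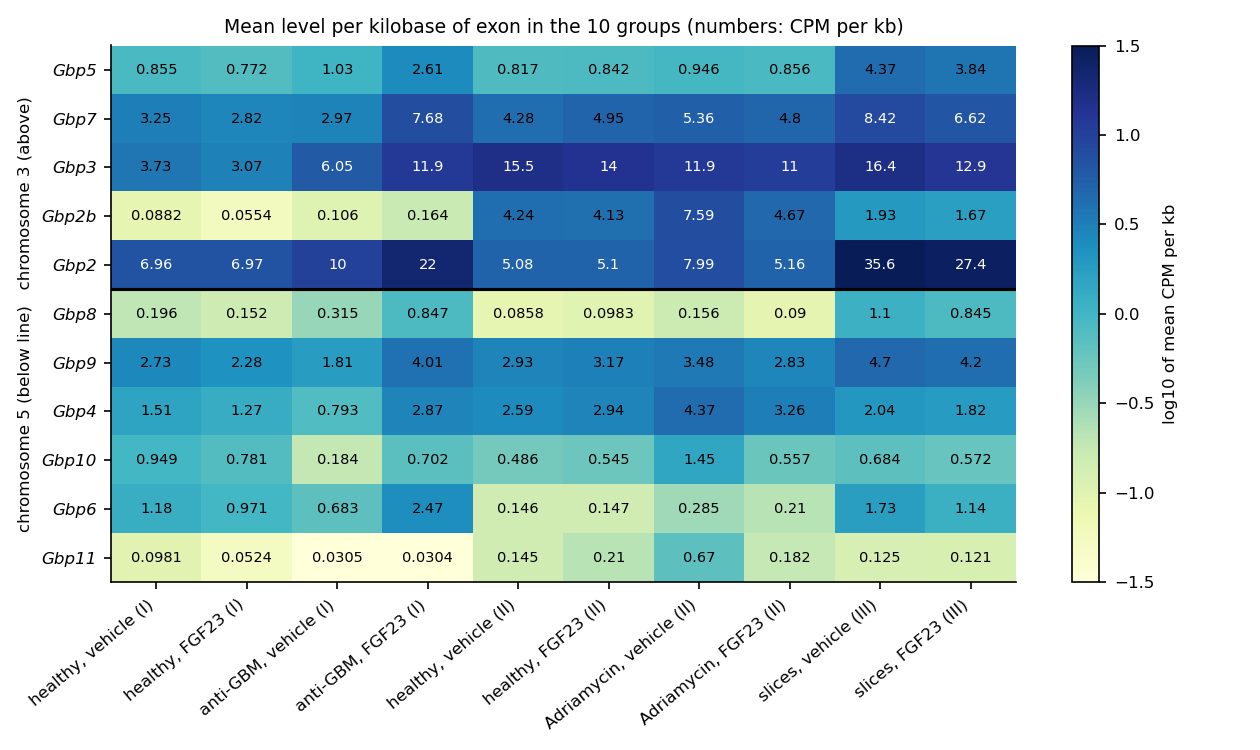
Mean level of 11 GBP genes (rows, by position on chromosomes 3 and 5) in the 10 groups (columns; I, anti-GBM experiment; II, Adriamycin experiment; III, slices), as CPM per kilobase of unshared exon, with a log10 color scale. Gbp2b was at 0.0554 to 0.164 CPM per kb in the C57BL/6 groups and at 1.67 to 7.59 CPM per kb in the others, while Gbp6 was low in all 4 BALB/c groups.

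Ranked by group mean in CPM, which compares a gene only with itself, 6 of 8 members were highest in vehicle slices. Gbp2 had 89.5 ± 9.36 CPM (SD, n = 4) in vehicle slices and 69.1 ± 14.8 CPM (SD, n = 4) in FGF23 slices. Next came FGF23-treated anti-GBM kidneys with 55.4 ± 8.26 CPM (SD, n = 3), anti-GBM vehicle kidneys with 25.2 ± 3.596 CPM (SD, n = 4) and Adriamycin vehicle kidneys with 20.1 ± 11.7 CPM (SD, n = 4). The other 5 groups lay between 12.8 and 17.5 CPM. Of the 9 steps in this order for Gbp2, 3 separated neighbouring groups without overlap, for 6 other members 1 step did, and for Gbp6 none did. The exceptions were Gbp6, highest in FGF23-treated anti-GBM kidneys at 10.4 ± 3.09 CPM (SD, n = 3), and Gbp4, with 15.2 ± 3.62 CPM (SD, n = 4) in vehicle slices against 32.5 ± 12.9 CPM (SD, n = 4) in Adriamycin vehicle kidneys. Strain, sex, disease model, treatment time and culture change together between experiments and cannot be told apart here.

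In healthy C57BL/6 mice, 6 days of FGF23 left no GBP gene past the threshold of an adjusted p of 0.05. Gbp2, which coats pathogen vacuoles and is anchored to membranes by a lipid, stood at 14.2, 16.4, 20.4 and 19.1 CPM in the 4 vehicle mice and at 17.6, 12.98 and 22.02 CPM in the 3 FGF23 mice. The groups overlapped for all 8 members. The log2 fold changes were negative throughout and small, from -0.42 for Gbp8 (95% interval -1.57 to 0.72) to -0.01 for Gbp2 (95% interval -0.39 to 0.38). The adjusted p values of edgeR's quasi-likelihood test were 0.996 to 0.999, and 0% of the 15859 genes tested passed. No member had an unadjusted p below 0.05 (4.34% of all genes), and DESeq2 called 0 of 8. The highest upper bound of any 95% interval was 0.72, that of Gbp8.

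Between healthy and anti-GBM mice given vehicle, 4 of 8 members passed the threshold, Gbp2 and Gbp3 higher and Gbp4 and Gbp9 lower. This share is near that of all genes tested, of which 39.8% passed, 19.4% higher and 20.4% lower, and the other 4 members did not pass. The comparison shares its diseased mice with the FGF23 comparison described below. Gbp2 was at 19.8, 26.7, 26.97 and 27.2 CPM in the anti-GBM vehicle mice, against 14.2 to 20.4 CPM in healthy vehicle mice. It rose by a log2 fold change of 0.52 ± 0.17 (SE, edgeR adjusted p = 0.0217). The groups overlapped by the single anti-GBM mouse NTS5, which lay below the highest healthy mouse. Gbp3 was at 10.6, 11.8, 12.8 and 13.5 CPM in healthy and at 13.1, 22.8, 22.2 and 20.95 CPM in anti-GBM mice, a rise of 0.70 ± 0.18 (SE, edgeR adjusted p = 0.00727). Here too only NTS5 fell within the healthy range.

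Gbp4 moved the other way. It was at 7.87, 9.84, 12.4 and 14.7 CPM in healthy mice and at 5.83, 6.69, 6.37 and 4.68 CPM in anti-GBM mice, a log2 fold change of -0.92 ± 0.23 (SE, edgeR adjusted p = 0.0061). Gbp9 went from 12, 12.1, 13.9 and 17.8 CPM to 9.25, 10.8, 10.7 and 6.26 CPM, a log2 fold change of -0.58 ± 0.16 (SE, edgeR adjusted p = 0.0113). For both genes every diseased mouse lay below every healthy mouse, as was so for 18.3% of all genes tested. Gbp6 had a log2 fold change of -0.78 (adjusted p = 0.0688 in edgeR's test) with mouse NTS7 at 4.47 CPM and the other anti-GBM vehicle mice at 2.198 to 2.45 CPM. Gbp5, Gbp7 and Gbp8 had log2 fold changes of 0.28, -0.12 and 0.70 and adjusted p of 0.308, 0.712 and 0.234 in edgeR's test. Gbp10, the non-member beside Gbp6, fell by 2.31 as a log2 fold change (edgeR adjusted p = 0.000887), with healthy mice at 1.98 ± 0.643 CPM (SD, n = 4) and diseased mice at 0.384 ± 0.173 CPM (SD, n = 4).

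None of the 4 members that passed reached a log2 fold change of 1. Without the vehicle-treated anti-GBM mouse NTS6, Gbp2 had an edgeR adjusted p of 0.0504, and without the healthy mouse NTS4, Gbp9 had 0.0627. Gbp6 passed the threshold without the anti-GBM mouse NTS7 (log2 fold change -1.08, adjusted p = 0.0201 in edgeR's test) or without the healthy FGF23 mouse NTS10 (-0.78, adjusted p = 0.045). Markers of macrophages moved with disease, with 9 of 10 higher in the same test, where 19.4% of all genes were higher. Their summed level was 152 to 159 CPM in healthy and 324 to 624 CPM in anti-GBM vehicle mice. Neutrophil markers (4 of 4 tested higher) and fibroblast markers (5 of 5 higher) moved too, and the part of these cells in the GBP values was not tested. In RNA from a piece of kidney, more cells of a type and more RNA per cell cannot be told apart.

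Genes around the GBPs in the interferon pathway are given from lists, with their counts in the same comparison of anti-GBM and healthy vehicle mice. Of all 15859 genes tested there, 19.4% were higher and 20.4% lower, and counts near these shares do not set a list apart. Of the 18 antiviral genes that type I interferons induce, 10 were higher and 1 lower, led by Oas1a (1.44 ± 0.19, SE), Oasl2 (0.86 ± 0.14, SE) and Oas2 (1.92 ± 0.33, SE) of the oligoadenylate synthetase family. Of the 7 receptors and kinases, 3 were higher, among them both chains of the interferon gamma receptor, Ifngr1 (0.99 ± 0.08, SE) and Ifngr2 (0.65 ± 0.11, SE). Of the 11 interferon transcription factors, 3 were higher, Stat3, Irf7 and Irf9, while Irf1 (0.22 ± 0.14, SE) did not pass. Of the 4 interferon ligands and inducing cytokines tested, 1 was higher and 0 were lower. Of the 6 inhibitors of interferon signaling tested, 3 were higher and 1 was lower. Socs3, a feedback inhibitor of JAK kinases, was higher by 4.02 ± 0.47 (SE), and its relative Socs1 had a log2 fold change of 0.57 ± 0.35 (SE, edgeR adjusted p = 0.212). Of the 13 IRG GTPases tested, 2 were lower, Iigp1 (-0.89 ± 0.24, SE) and Tgtp2 (-0.72 ± 0.23, SE), and none higher. Of the 8 inflammasome and pyroptosis genes tested, 6 were higher, led by Casp4 (1.73 ± 0.19, SE), the caspase that senses lipopolysaccharide. Of the 11 genes that help load GBPs onto vacuoles, 1 was higher and 3 were lower. Of the 8 genes listed for prenylation, 3 were higher and 2 lower.

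With 6 days of FGF23 in anti-GBM disease, every member was higher in each of the 3 treated mice than in any of the 4 vehicle mice. This is the comparison in which the family had been noticed, and its values are given as a description. Gbp2 reached 62.9, 56.7 and 46.5 CPM with FGF23 against 19.8 to 27.2 CPM with vehicle, a log2 fold change of 1.14 ± 0.17 (SE). Gbp5, the member best known for promoting inflammasome assembly, went from 5.16, 8.62, 6.99 and 6.70 CPM to 21.04, 17.9 and 12.97 CPM (1.34 ± 0.21, SE). These are the lipid-anchored members, and the lowest FGF23 mouse in both was NTS16.

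The other chromosome 3 members were also higher in every FGF23 mouse. Gbp3 was at 48.5, 37.4 and 31.04 CPM with FGF23 against 13.1 to 22.8 CPM with vehicle (0.98 ± 0.19, SE). Gbp7, which has been tied to the assembly of the phagocyte oxidase, was at 48.7, 43.2 and 22.7 CPM against 10.2, 15.3, 21.4 and 12.3 CPM (1.37 ± 0.25, SE). For Gbp7 mouse NTS16 lay just above the highest vehicle mouse, NTS7.

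The largest fold changes were those of Gbp4 and Gbp6 on chromosome 5. Gbp4 was at 19.1, 27.98 and 16.9 CPM with FGF23 against 4.68 to 6.69 CPM with vehicle (1.85 ± 0.24, SE). Gbp6 was at 10.5, 13.5 and 7.33 CPM against 2.198 to 4.47 CPM (1.84 ± 0.33, SE). Mouse NTS14 was highest for both. Gbp9 was the most even, at 19.7, 22.1 and 19.7 CPM against 6.26 to 10.8 CPM (1.14 ± 0.17, SE). Gbp8, covered by 6 to 67 reads per anti-GBM library, was at 3.22, 2.55 and 2.82 CPM against 1.48, 1.22, 1.13 and 0.432 CPM (1.40 ± 0.43, SE). The non-member Gbp10, which shares sequence with Gbp6 and had 2 to 34 reads per anti-GBM library, had a log2 fold change of 1.89 ± 0.45 (SE).

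**Figure D2:**
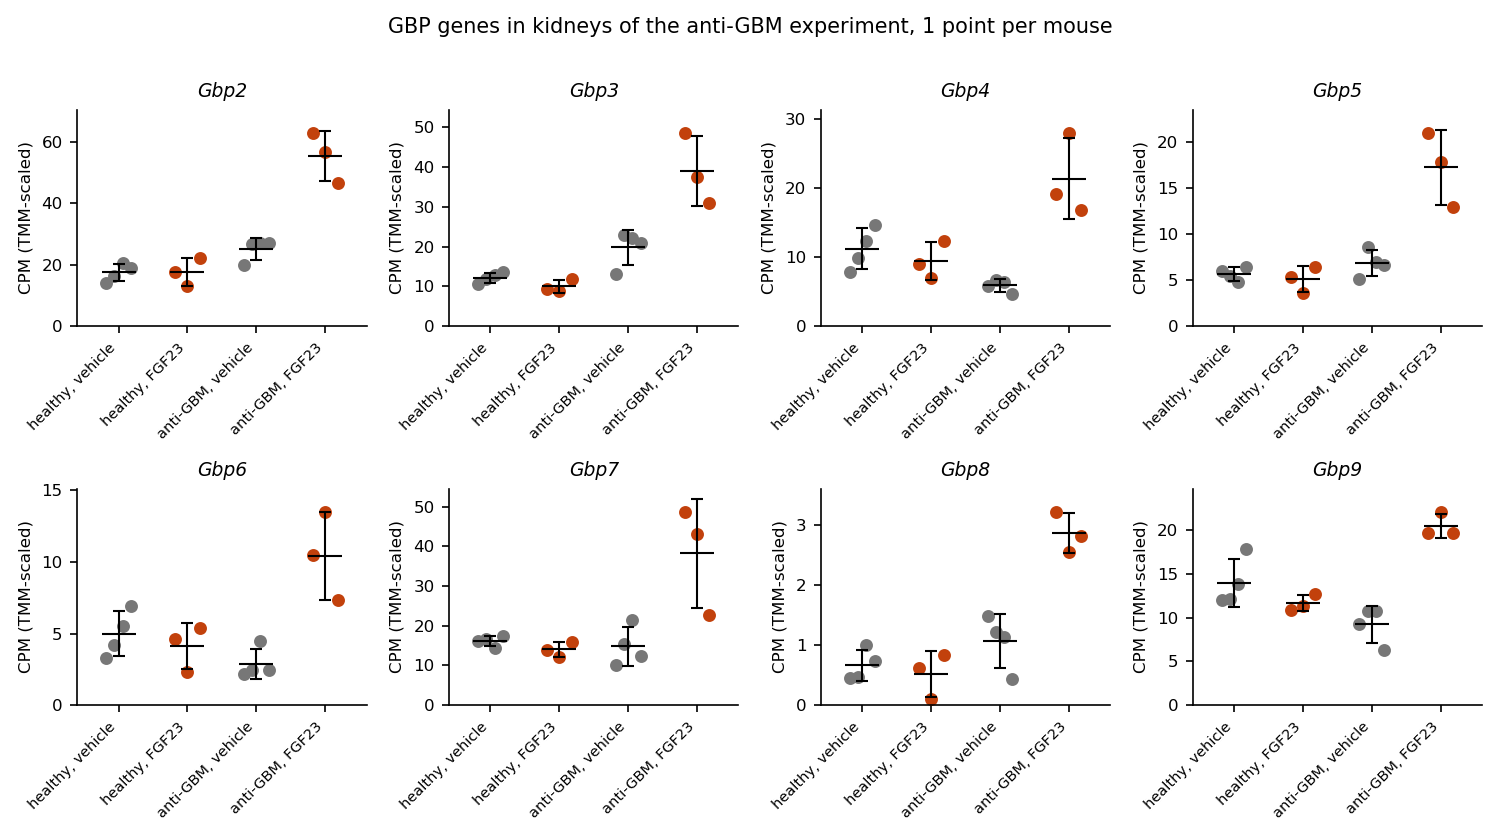
Level of each GBP gene (CPM, linear axis from 0) in the 14 kidneys of the anti-GBM experiment, with gray points for vehicle, orange points for FGF23, and bars for the mean ± SD. In all 8 panels the 3 FGF23-treated anti-GBM mice lie above the 4 vehicle-treated anti-GBM mice, while the healthy groups overlap.

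As linear ratios the members were 1.98 to 3.61 times as high with FGF23, with a median of 2.55. Since the members were chosen from this comparison, the counts of calls in it were fixed in part by that choice, are no test of the members, and nothing is read from them. The fit over all genes called 7 of 8 members, all but Gbp8, and 0.24% of the 15859 genes, and in 5.11% of all genes every FGF23 mouse lay above every vehicle mouse. The count of 7 fell to 1 without the FGF23-treated mouse NTS13 or NTS14, to 3 without the vehicle-treated anti-GBM mouse NTS5 or NTS8, and to 4 without NTS6 of that group, the healthy vehicle mouse NTS2 or NTS3 or the healthy FGF23 mouse NTS9. The direction stayed the same throughout, with log2 fold changes of 0.80 to 1.93 without NTS13 and of 1.02 to 1.62 without NTS14. With only the 2 anti-GBM groups in the fit, the count was 2 of 8.

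The difference between the FGF23 effects in diseased and healthy mice ran from 1.15 ± 0.25 (SE) for Gbp2 to 2.13 ± 0.48 (SE) for Gbp6 on the log2 scale, with a median of 1.53. Against healthy mice given FGF23, anti-GBM mice given FGF23 had higher levels of all 8 members, from 0.82 ± 0.18 (SE) for Gbp9 to 2.52 ± 0.51 (SE) for Gbp8. Both comparisons hold the FGF23-treated anti-GBM mice whose values led to the choice of the family, so they too are descriptions, and nothing is read from their counts of calls. For the difference edgeR called 0 of 8 members and 0.0315% of all genes, with 8 of 8 members and 8.3% of all genes at an unadjusted p below 0.05, while DESeq2 called 7 of 8. The edgeR count was 1 without the healthy mouse NTS1 and 2 without NTS16 of the FGF23-treated anti-GBM mice. For diseased against healthy mice under FGF23 it was 8 of 8, and 27.2% of all genes.

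**Figure D3:**
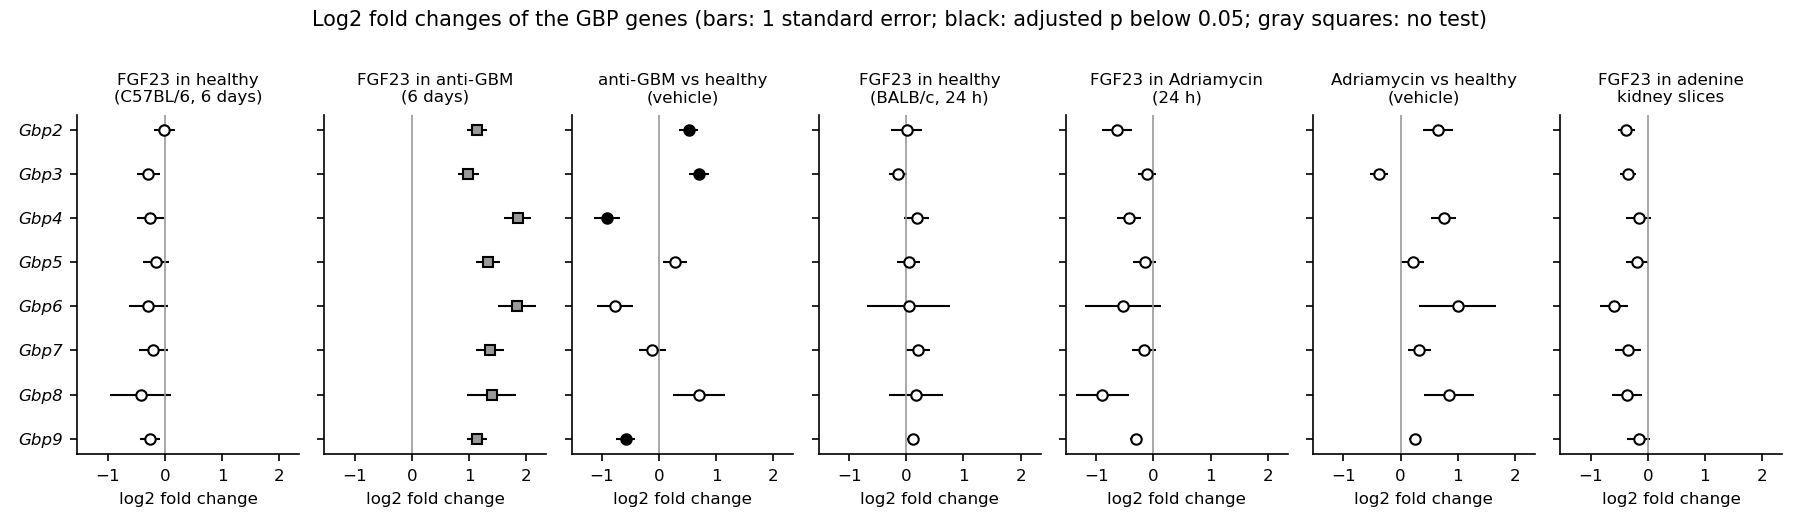
Log2 fold change of each GBP gene (horizontal axis, bars of 1 SE) in 7 comparisons, filled black where edgeR's adjusted p was below 0.05; gray squares are the comparison from which the genes were chosen, shown with no call. The values lie between 0.98 and 1.85 for FGF23 in anti-GBM disease and below 0 for FGF23 in healthy C57BL/6 mice, in Adriamycin mice and in slices.

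The same lists are described for FGF23 against vehicle in anti-GBM disease by their log2 fold changes alone, with no calls, since this is the comparison from which the GBP genes were chosen. The IRG GTPases, which load onto vacuoles together with GBPs, had positive log2 fold changes in 13 of 13 tested genes, with a median of 1.60 where the median of all genes was -0.00. They were led by Tgtp2 (2.12 ± 0.24, SE), Tgtp1 (2.47 ± 0.28, SE) and Iigp1 (2.01 ± 0.26, SE), of which the first and second are near-identical copies whose reads may be split between them. The 11 interferon transcription factors also had positive log2 fold changes throughout, with a median of 0.82. Irf1 was at 66.1, 69.1 and 48.1 CPM with FGF23 against 21.9, 24.2, 28.6 and 28.7 CPM with vehicle (1.24 ± 0.15, SE). Stat2, which acts in type I interferon signaling, had a log2 fold change of 0.81 ± 0.12 (SE).

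The 18 type I interferon genes had log2 fold changes above 0 in 18 of 18, with a median of 0.51. Receptors and kinases had a median of 0.05, inhibitors of interferon signaling -0.03 and the genes listed for prenylation, the attachment of a lipid, -0.02. The ubiquitin-like conjugation genes that help GBPs onto vacuoles had a median of -0.13, and inflammasome and pyroptosis genes 0.32. In these 5 lists 5 of 7, 3 of 6, 3 of 8, 3 of 11 and 6 of 8 genes were above 0. Socs1 had a log2 fold change of 0.50 ± 0.35 (SE). Of the 13 interferon ligands and inducing cytokines, 4 could be tested, with a median of -0.13 and 1 of 4 above 0. Ifng, the gene of interferon gamma, was at 0 to 0.149 CPM in every library of the series and in no experiment passed the count filter, so that a change in its own transcript was not detectable at this depth.

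Cell markers in the same mice are given beside these values. The summed level of 10 macrophage markers was 324 to 624 CPM with vehicle and 518 to 535 CPM with FGF23, with a median log2 fold change of 0.17 and 10 of 10 above 0. That of 12 T and NK cell markers was 9.0 to 14.5 CPM and 16.9 to 18.1 CPM, with a median of 0.48 and 8 of 8 tested genes above 0. Endothelial markers summed to 541 to 762 CPM and 509 to 627 CPM, with a median of -0.17. Neutrophil markers had a median of -1.10, with 0 of 4 tested genes above 0, and fibroblast markers 0.45, with 5 of 5 above 0. B cell, tubule and podocyte markers had medians of -0.18, -0.02 and -0.18. No T and NK cell or macrophage marker was at 0 in all mice of a group. The part of these cells in the GBP values was not tested.

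**Figure D4:**
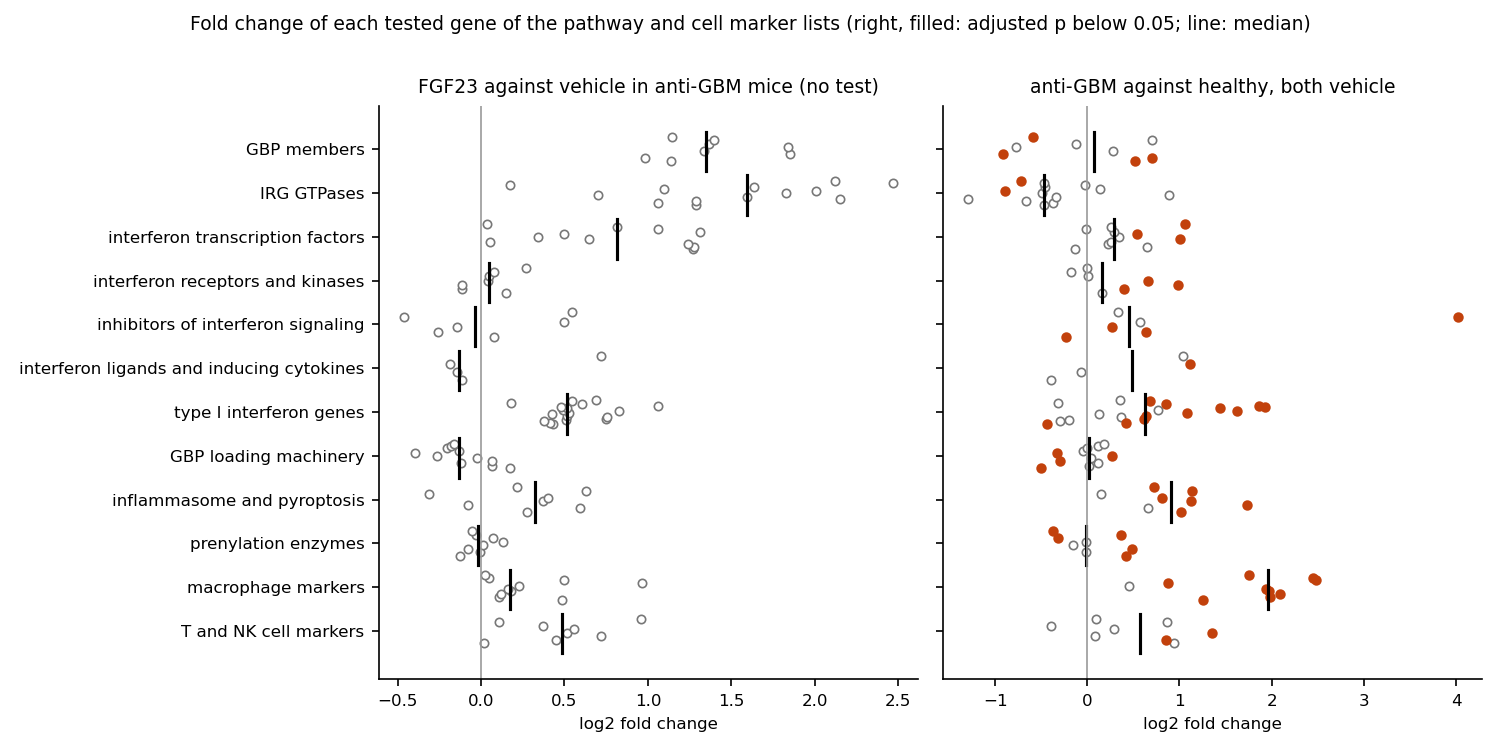
Log2 fold change of each tested gene (points) in 12 lists for FGF23 against vehicle in anti-GBM mice (left) and for anti-GBM against healthy vehicle mice (right). Black lines are list medians, and calls are drawn on the right alone, where filled points had an adjusted p below 0.05 in edgeR's test. There 9 of 10 macrophage markers are filled, and 39.8% of all genes tested passed.

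In the Adriamycin experiment no member passed the threshold of edgeR's quasi-likelihood test in any of the 5 comparisons, nor did any gene of the pathway and marker lists. Healthy BALB/c mice given vehicle and FGF23 overlapped for all 8 members, with log2 fold changes of -0.15 to 0.21 and edgeR adjusted p of 0.868 to 0.999. There 0 of 8 had an unadjusted p below 0.05 (6.69% of all genes), DESeq2 called 0, and 0% of the 16020 genes tested passed.

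Between healthy and Adriamycin vehicle mice, 7 of 8 members had positive log2 fold changes, from 0.21 for Gbp5 to 1.00 for Gbp6, and Gbp3 had -0.38. In edgeR's test adjusted p were 0.22 to 0.861, with 3 members (Gbp2, Gbp4, Gbp9) higher and Gbp3 lower at an unadjusted p below 0.05 (8.27% of all genes), where 0.331% of all genes passed the adjusted threshold. DESeq2 put 1 of 8 past it, Gbp4, with an adjusted p of 0.039. Gbp4 was at 22.2, 18.2, 16.1 and 20.6 CPM in healthy mice and at 50.1, 33.8, 23.9 and 22 CPM in Adriamycin mice. Gbp2 was at 10.7 to 14.6 CPM in healthy mice and at 37.2, 17.6, 14.1 and 11.5 CPM in Adriamycin mice.

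The high value in each case came from the vehicle-treated Adriamycin mouse Ad5, which was highest of its group in 7 of 8 members, while mouse Ad8 was lowest in 7 of 8. Ad5 also had 8.42 CPM of Gbp10, 6.27 CPM of Gbp11 and 46.9 CPM of Gbp2b, where the other mice of its group had 1.03 to 1.38, 0.179 to 0.551 and 10.02 to 17.9 CPM. Without Ad5, log2 fold changes between healthy and Adriamycin mice ran from -0.48 to 0.64, with Gbp2 at 0.18 and Gbp6 at -0.07. Within the group, the sum of the members was 102 to 208 CPM and that of the IRG GTPases 171 to 377 CPM, beside 127 to 218 CPM of macrophage markers and 4.77 to 9.78 CPM of T and NK cell markers, whose part was not tested.

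A single dose of FGF23 in Adriamycin mice gave log2 fold changes below 0 in 8 of 8 members, from -0.90 for Gbp8 to -0.11 for Gbp3, with edgeR adjusted p of 0.773 to 0.991. Gbp2 was at 11.3, 14.03, 13.1 and 13.5 CPM with FGF23 and had a log2 fold change of -0.63 ± 0.27 (SE, edgeR adjusted p = 0.846). Gbp9 was at 12.5, 13.6, 15.8 and 15.95 CPM against 21.2, 18.2, 17.04 and 14.6 CPM (-0.30 ± 0.10, SE, edgeR adjusted p = 0.773). All 8 members overlapped between the groups. These 2 were the members with an unadjusted p below 0.05 (5.69% of all genes), DESeq2 called 0, and 0.0375% of all genes (6 genes) passed. Without Ad5, 3 of 8 log2 fold changes were positive and the range was -0.68 to 0.54.

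The remaining 2 Adriamycin comparisons had 0 of 8 members past the threshold in edgeR and in DESeq2. For Adriamycin against healthy mice under FGF23, log2 fold changes ran from -0.34 (Gbp3) to 0.42 (Gbp6), 1 member, Gbp3, had an unadjusted p below 0.05 (12.7% of all genes), and 0.699% of all genes passed. For the difference between the FGF23 effects in Adriamycin and healthy mice they ran from -1.07 (Gbp8) to 0.03 (Gbp3), 1 member, Gbp9, had an unadjusted p below 0.05 (5.11% of all genes), and 0% of all genes passed. For Gbp3 the 4 Adriamycin mice given FGF23, at 31.8 to 40.5 CPM, lay below the 4 healthy mice given FGF23, at 41.1 to 49.7 CPM, as was so for 2.97% of all genes.

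In adenine kidney slices all 8 members had lower means with FGF23, and neither they nor any gene of the lists passed the threshold. Gbp2 was at 87.8, 103, 85.3 and 81.8 CPM with vehicle and at 46.9, 77.4, 77.8 and 74.1 CPM with FGF23, a log2 fold change of -0.37 ± 0.15 (SE, edgeR adjusted p = 0.849). Gbp3 was at 49.5, 69.2, 48.8 and 46.3 CPM with vehicle and at 36.03, 46.2, 44.3 and 42.0 CPM with FGF23 (-0.35 ± 0.14, SE, edgeR adjusted p = 0.849). For these 2 genes every FGF23 slice lay below every vehicle slice, as was so for 1.72% of all genes. Gbp6 had -0.59 ± 0.25 (SE, edgeR adjusted p = 0.849), and the other 5 lay between -0.37 and -0.16.

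Slice F1 was the lowest of the FGF23 slices in 8 of 8 members. Without it the log2 fold changes ran from -0.43 to 0.02, and that of Gbp2 was -0.23. At an unadjusted p below 0.05 (4.89% of all genes) there were 3 members, Gbp2, Gbp3 and Gbp6, all lower, DESeq2 called 0, and 0% of the 15090 genes tested passed. Irf1 was at 103 to 157 CPM in vehicle slices and at 121 to 154 CPM in FGF23 slices. Tubule markers summed to 2163 to 5103 CPM with vehicle and 3723 to 7617 CPM with FGF23. Their median log2 fold change was 0.55, with 7 of 7 above 0, and that of endothelial markers 0.11, with 8 of 8. Macrophage markers had a median of -0.29 (1 of 10 above 0), T and NK cell markers -0.18 (0 of 6) and fibroblast markers -0.29 (0 of 5). The part of these cells in the GBP values of the slices was not tested.

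**Figure D5:**
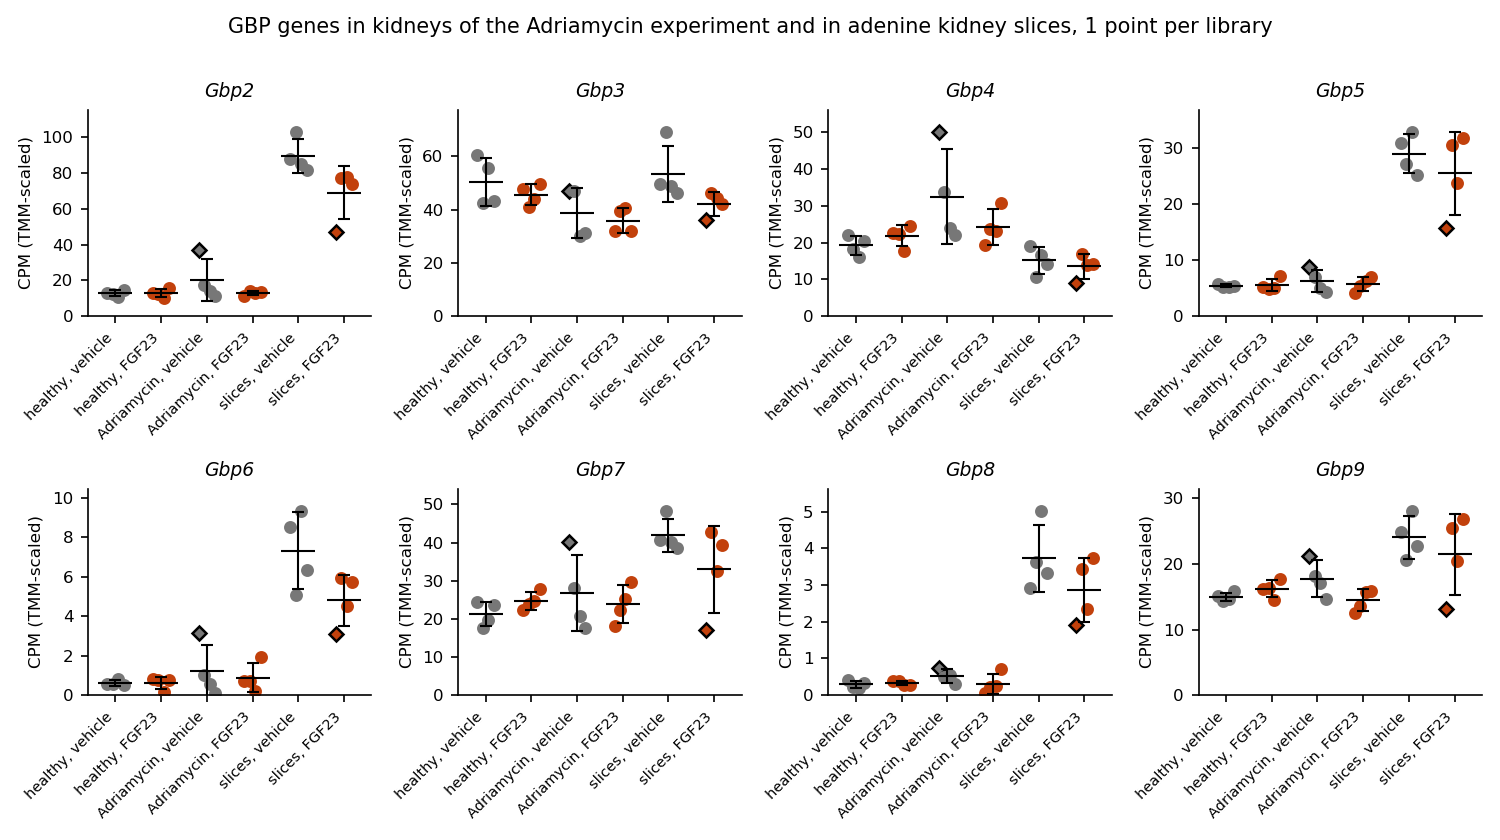
Level of each GBP gene (CPM, linear axis from 0) in the 16 kidneys of the Adriamycin experiment and the 8 slice cultures, with gray points for vehicle, orange points for FGF23, and bars for the mean ± SD. Diamonds mark mouse Ad5 (vehicle, Adriamycin) and slice F1 (FGF23): Ad5 has the highest Gbp2 of the 16 mice, 37.2 CPM, and F1 the lowest Gbp2 of the 8 slices, 46.9 CPM.

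Members also varied together between mice of a group. Deviations of log2 CPM from the group mean, over all 38 libraries, had Pearson correlations from 0.181 for Gbp3 with Gbp8 to 0.841 for Gbp5 with Gbp7. The points share libraries and scaling, and the values are descriptions. Among the 10 genes with the deviation most like the mean of the members were Iigp1 (r = 0.924), Irgm2 (0.905), Igtp (0.880) and the peptide transporter gene Tap1 (0.876). Ifi47 (0.860), Nlrc5 (0.843), BC023105 (0.832), Gm12250 (0.795) and Tap2 (0.792) were also among them. Of these, Iigp1, Irgm2 and Igtp were on the IRG list used here, which held neither Ifi47 nor Gm12250. For Iigp1 the correlation was 0.861 in the anti-GBM experiment alone, 0.961 in the Adriamycin experiment alone, 0.927 in the slices alone and 0.910 without mouse Ad5. The mean deviation of the members was highest in Ad5, at 0.743, and lowest in Ad8, at -0.658, which were mice of the same group.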

How the data were processed

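Poly(A) RNA of 38 libraries was sequenced after a stranded preparation. Of these, 8 were from kidney slices and 30 from a piece of kidney per mouse, which the study calls the pars intermedia. Per the submitters' processing notes and the study's methods, the authors used bcl2fastq 2.20.0, FastQC 0.11.8, STAR 2.7.9a on GRCm38 and featureCounts 1.5.1, and deposited raw read counts per Ensembl gene with no filter. Settings for strand and for reads matching several genes are not given in the sources used here. The reference is the C57BL/6J sequence for all 3 strains.

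The deposited columns of the anti-GBM and Adriamycin experiments carry mouse names. They were assigned to groups through the study's own tables, in which the same counts stand under each mouse's group, and 1 column headed NTS4 is mouse NTS14 there. Symbols were matched for 55141 of 55487 gene identifiers. Members and gene lists were chosen with earlier results of these data known. All 8 members are counted in every comparison, in some of them with a range in place of single values. The other Gbp genes, Ifng, Irf1 and Socs1 were to be named throughout, but their values are given in some comparisons only. Also named are up to 3 genes per list with the smallest p, and the 10 genes whose deviations from the group means were most like the family's. Where fewer or other genes of a list are named (Irf7, Irf9, Tgtp2, Ifngr2), they complete a small count. A gene that these rules also select is not reported here. Gbp2b and Gbp11 were named for Ad5 after their values were seen.

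Counts were tested with edgeR 4.0.16 (R 4.3.3, limma 3.58.1): TMM scaling, filterByExpr with a minimum count of 10, and a quasi-likelihood fit over all groups of an experiment, with Benjamini-Hochberg adjustment over the 15859, 16020 and 15090 genes tested and a threshold of 0.05. The fit was tested on simulated data. CPM were computed from TMM-scaled library sizes. The log2 CPM behind the overlap of groups and the correlations use a prior count of 2, and fitted fold changes use edgeR's default. Alternatives were DESeq2 1.42.0, median-of-ratios size factors, other count filters, a robust fit, only the groups compared, a fold threshold and each library left out. No replicates of a group agreed within sampling noise, with a chi-square per degree of freedom of at least 2.12. Depth limits low genes: Gbp6 had 2 to 67 reads per library in the Adriamycin experiment. Loci are from GENCODE M21 and promoters from RefSeq. Protein sequences were not used here.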

Additional observations from a re-analysis of the deposited data

Results flagged for a closer look

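In groups of 4, single libraries stood apart from the other 3 in 5 of the 64 combinations of member and group examined (Dixon's 95% criterion, which chance passes in about 1 of 20 groups). In anti-GBM vehicle mice, Gbp2 was 19.8 CPM in NTS5, with the others at 26.7 to 27.2 CPM. In the same group Gbp6 was 4.47 CPM in NTS7, with the others at 2.198 to 2.45 CPM. In FGF23 slices, Gbp2 was 46.9 CPM in F1, with the others at 74.1 to 77.8 CPM. In vehicle slices, Gbp3 was 69.2 CPM in V2, with the others at 46.3 to 49.5 CPM. In healthy BALB/c mice given FGF23, Gbp6 was 0.162 CPM in Ad11, with the others at 0.753 to 0.811 CPM.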

How the results depend on the processing

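No member's called fold change changed sign under any alternative run. The count of members past the threshold in anti-GBM against healthy vehicle mice was 0 in place of 4 when a log2 fold change above 1 was also required, since all 4 lay below it, and 3 to 5 with each library left out. The next 3 counts come from comparisons that hold the FGF23-treated anti-GBM mice and are no test of the members. For FGF23 in anti-GBM disease it was 2 in place of 7 with only the groups compared, and 1 to 7 with each library left out. For the difference between the FGF23 effects in anti-GBM and healthy mice it was 7 in place of 0 without a count filter and 7 with DESeq2, and 0 to 2 with each library left out. For anti-GBM against healthy mice under FGF23 it was 7 to 8 with each library left out. For Adriamycin against healthy vehicle mice it was 1 in place of 0 with DESeq2. For these changes the cause was not tested. The count stayed at 0 in the other 6 comparisons. Of the 10 genes most like the family, 9 were shared with the 10 by Spearman correlation, 4 with those of the anti-GBM experiment alone, 4 with those of the Adriamycin experiment alone and 1 with those of the slices alone.

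With the slice numbers as a replicate block, 0 members passed (log2 fold changes -0.58 to -0.16, adjusted p 0.796 to 0.951 in edgeR's test), and 0 genes passed with or without the block. Same-numbered slices had correlations of 0.107, 0.105, -0.105 and 0.112, and slices of unlike number had -0.161 to 0.124. With 4 slices in each arm these values cannot decide whether the numbers pair the slices. In the anti-GBM and Adriamycin experiments the groups held different mice and the columns carry no replicate numbers, so no paired analysis was run there.

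Gbp8 and, in BALB/c mice, Gbp6 rest on few reads, and Gbp6 and Gbp10 on sequence they share with other genes, so their fold changes are the least certain. The 3 to 4 libraries per group limit what the comparisons can show, and values that missed the threshold do not show that groups were alike.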
